A study of Mus musculus with 6 samples.

Results

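The Notch pathway genes described here are 10 genes, chosen by name from the 15399 rows of a gene expression table: the receptors Notch1, Notch2, Notch3 and Notch4, the ligands Jag1, Jag2 and Dll4, and the target repressors Hes1, Hey1 and Hey2. They were measured by RNA sequencing in a mouse line labelled bEND.3, known as a line of brain endothelium. Of the 6 libraries, 3 came from cells that stably expressed circSlc17a5, a circular RNA named after its host gene Slc17a5, and 3 from cells carrying the empty vector as negative control. Both groups are stable lines, and the labels do not say whether each was 1 clone. Nor do they say that replicates were grown separately, so every p-value here reflects library-to-library spread that may be technical. The series title links the circular RNA to new vessel growth in the eye, a setting in which Notch signalling is known to act.

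Notch receptors are single-pass membrane proteins that are activated by ligands of the Jagged and Delta families on neighbouring cells. Ligand binding leads to cleavage of the receptor, first by an ADAM protease and then by the gamma-secretase complex, and the freed intracellular part enters the nucleus and turns the DNA-binding protein RBPJ into an activator. The best known direct targets are the Hes and Hey repressors. In endothelium Notch signalling is known for holding back tip cell formation during sprouting and for arterial identity.

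In cells with circSlc17a5, Notch1 was 1.45-fold, Notch3 2.44-fold, Jag2 1.28-fold and Hey1 2.35-fold higher than in control cells by edgeR's quasi-likelihood test at a Benjamini-Hochberg adjusted p under 0.05. Notch2, Notch4, Jag1 and Hes1 did not pass the test, and Dll4 and Hey2 had too few counts to be tested. The calls of Notch1 and Notch3 held with each single library left out, while those of Jag2 and Hey1 did not. Of the 10 members 4 rose and 0 fell (the unadjusted count was 5 higher and 0 lower, DESeq2 called 4 and 0, and limma-voom 4 and 0). The 4 called by DESeq2 included Notch2 in place of Hey1. Over all 11722 tested genes, 22% were called in either direction and 11.8% as risen. Hey1 entered the test only through the circSlc17a5 libraries, since 1 of the control libraries reached the filter on low counts. Without that filter all 10 members were fitted, the same count of 4 was called, and their median log2 fold change was 0.36, against -0.0046 over all genes fitted.

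The promoter windows of Notch1 and Notch3, the members whose calls held throughout, are given first, with that of Hey2, which held the core letters of the RBPJ site. RefSeq windows of 300 bases on GRCm38.p6, from 250 bases before to 50 bases after the start site used in the RefSeq table, were found for 8 of the 10 members, Hes1 and Hey1 being the exceptions. They were searched on both strands for the motif TGGGAA, the core of the RBPJ site, which lay in 25.6% of all 32851 such windows. The start site used for Jag2 lies 317 bases inside the gene as RefSeq bounds it, so its window holds no base before the gene and is left out here. Those used for Notch3 and Notch4 lie 6 and 9 bases inside, and the others at the gene's end. Outside Jag2, the windows of Notch1, Notch2, Notch3, Notch4, Jag1 and Dll4 held no match. The window of Hey2 held 2 matches, the first beginning 207 bases before the start in the reverse orientation and the second 3 bases before it. The sequences are written from 5′ to 3′ on the strand of the gene, with matches in capitals.
Notch1, chr2:26503773-26504072, minus strand: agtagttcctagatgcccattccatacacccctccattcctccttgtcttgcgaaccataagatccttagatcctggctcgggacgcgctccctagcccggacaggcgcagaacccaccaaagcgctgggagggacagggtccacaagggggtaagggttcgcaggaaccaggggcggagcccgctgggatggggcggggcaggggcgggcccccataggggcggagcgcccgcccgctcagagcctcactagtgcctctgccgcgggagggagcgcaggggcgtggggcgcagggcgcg
Notch3, chr17:32166841-32167140, minus strand: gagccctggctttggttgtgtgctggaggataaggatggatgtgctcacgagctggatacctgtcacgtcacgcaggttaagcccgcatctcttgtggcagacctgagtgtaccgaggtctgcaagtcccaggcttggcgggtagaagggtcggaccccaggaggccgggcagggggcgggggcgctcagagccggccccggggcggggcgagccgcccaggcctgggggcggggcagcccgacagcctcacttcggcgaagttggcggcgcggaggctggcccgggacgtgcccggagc
Hey2, chr10:30842734-30843033, minus strand: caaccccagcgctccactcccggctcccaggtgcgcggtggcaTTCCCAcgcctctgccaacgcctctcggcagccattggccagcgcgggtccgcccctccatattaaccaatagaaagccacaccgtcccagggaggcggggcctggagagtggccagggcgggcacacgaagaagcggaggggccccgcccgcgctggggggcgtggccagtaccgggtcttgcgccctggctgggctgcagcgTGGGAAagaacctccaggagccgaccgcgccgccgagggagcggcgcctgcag
GC content was 68.3% in the window of Notch1 and 70% in that of Notch3. It was 73% for Notch2, 58.3% for Notch4, 55.7% for Jag1, 63.7% for Dll4 and 72% for Hey2, which were not called or not tested, against a median of 52.7% over all windows. A match of letters is a description of these windows and was not measured as binding.

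The cells were checked against marker genes before the members are described. Library totals lay between 16848513 and 17600230 counts. Slc17a5, the host gene, had 605, 495 and 492 counts in the circSlc17a5 libraries and 391, 358 and 380 in the control libraries, and the circular RNA itself was not measured separately. Defining endothelial genes were nearly absent: mean FPKM (fragments scaled by transcript length and library depth) with circSlc17a5 and in control was 0.163 and 0.18 for Pecam1, 0.467 and 0.33 for Cdh5, 0.03 and 0.00667 for Kdr, and 0.01 and 0.0167 for Tek. Among 14 endothelial markers found, 11 averaged under 1 FPKM, and the highest, Egfl7, Plvap and Flt1, averaged 13.7, 10.2 and 8.71 over the 6 libraries. Keratins of simple epithelia were abundant, with mean FPKM with circSlc17a5 and in control of 875 and 1132 for Krt18, 400 and 405 for Krt8, and 367 and 401 for Krt19. The other 3 of the 6 listed epithelial genes averaged under 1 FPKM over the 6 libraries (Epcam 0.858, Cdh1 0.0183 and Krt7 0.0133). Among markers of other cell types, Krt18 (edgeR adjusted p = 0.0298), Des (0.00932) and Anpep (0.0057) fell. The epithelial gene Epcam (2.32-fold, adjusted p = 0.0155), the fibroblast gene Pdgfra (1.67-fold, 0.0132) and the mural gene Pdgfrb (2.27-fold, 0.00458) rose. Of 3 tested fibroblast markers Pdgfra alone was called, and Col1a1 and Col1a2 had log2 fold changes of -0.76 and -0.62. Cd68, a leukocyte marker, averaged 377 and 304 FPKM with circSlc17a5 and in control and was not called. The 3 other leukocyte markers found averaged under 1 FPKM. The part of all these markers in the results on the members was not tested. The data thus go against the endothelial label for most of its defining genes, and the cells are called by the name of the line below. On the first principal component of all genes the circSlc17a5 libraries lay between 13.3 and 24.3 and the control libraries at -4.46 (replicate 1), -30.4 and -18.4, so that control replicate 1 was the nearest to the circSlc17a5 libraries.

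On the FPKM scale, which allows genes to be compared per length, Hes1 was by far the most abundant member. It averaged 28 ± 2.34 FPKM with circSlc17a5 and 27.6 ± 4.76 in control (SD, n = 3 libraries each). With circSlc17a5 it was followed by Notch2 at 7.19, Jag2 at 5.69, Notch1 at 4.0, Jag1 at 2.45 and Notch4 at 1.62 mean FPKM. Hey1 at 0.597, Notch3 at 0.39, Dll4 at 0.233 and Hey2 at 0.02 formed the low end, and no 2 neighbours in this order overlapped over the 3 circSlc17a5 libraries. In control cells the order was the same down to Hey1, and then Dll4 at 0.18 stood before Notch3 at 0.15. There, Notch1 and Jag1 overlapped (2.29 to 2.96 and 1.91 to 2.31 FPKM), as did Dll4 and Notch3.

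**Figure D1:**
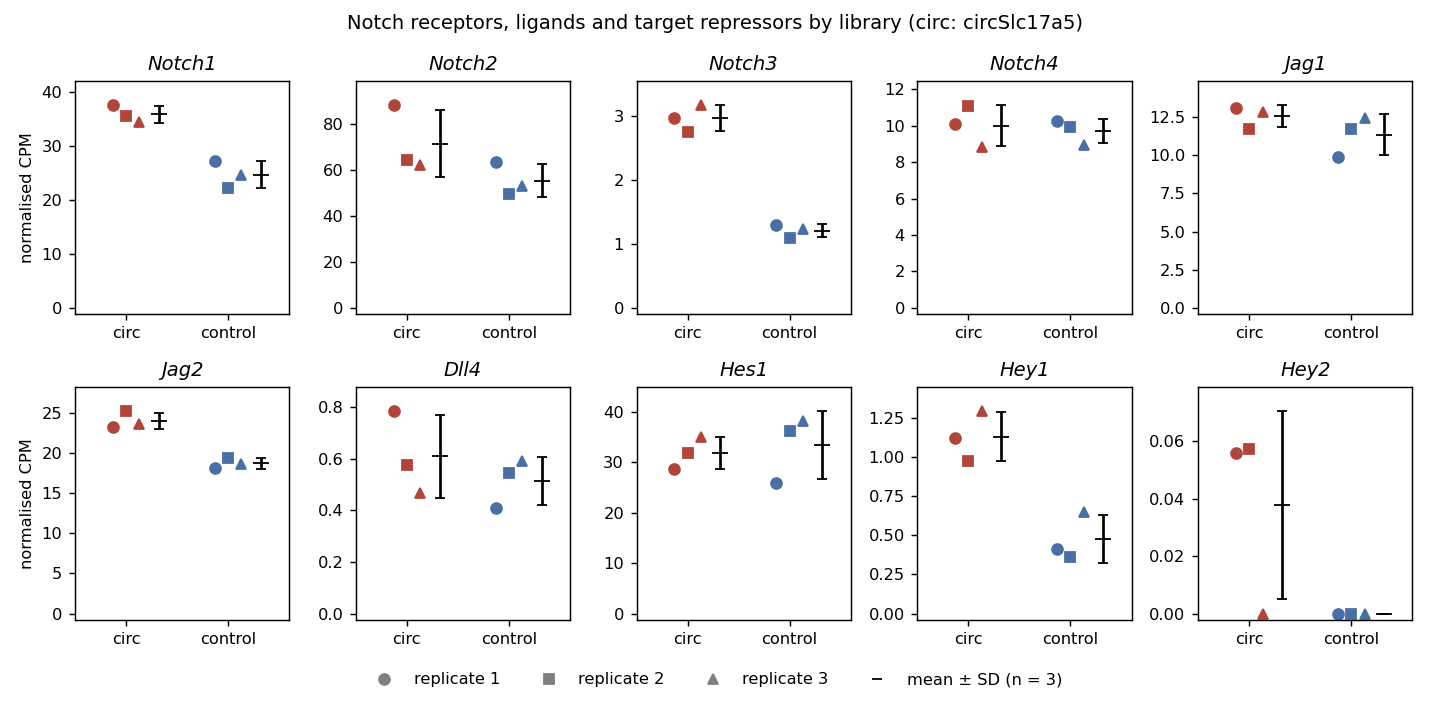
Normalised read counts (CPM, y axis from 0) of the 10 members in each library, with circSlc17a5 (circ) left of control, 1 marker per replicate and the mean ± SD of 3 libraries as a black bar. The groups are separate for Notch1, Notch3, Jag2 and Hey1 and overlap for Notch2, Notch4, Jag1, Dll4 and Hes1, while Hey2 has at most 1 count per library.

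Among the receptors, Notch1, the receptor of early development and of many epithelia and vessels, was clearly separated between the groups. It lies on chromosome 2 at 26446612 to 26503822 in the authors' deposited table and had normalised levels of 37.6, 35.6 and 34.5 CPM (read counts relative to library size, which was scaled by the trimmed mean of M-values, TMM) in the circSlc17a5 libraries, against 27.2, 22.2 and 24.6 CPM in the control libraries. Every circSlc17a5 library was above every control library, as was the case for 4 of the 8 tested members, with 0 the other way. These 4 include Hey1, which entered the test only through the circSlc17a5 libraries. Of all tested genes 42.6% had groups that did not overlap, 21.8% in this direction. On the log2 scale the difference of Notch1 was 0.54, SE (standard error) 0.09, with edgeR adjusted p = 0.00643, and 6.28% of tested genes had a larger one. With each library left out in turn it lay between 0.47 and 0.62, called each time (highest adjusted p = 0.0376). In bulk RNA, for this and all later results, fewer cells of a type and less RNA per cell cannot be told apart.

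Notch3, a receptor known mainly from mural cells of vessels, was the least expressed receptor and had the largest difference among the tested members. It had 53, 48 and 54 counts with circSlc17a5 and 22, 18 and 21 counts in control, or 2.96 ± 0.20 and 1.2 ± 0.10 CPM (SD, n = 3 libraries each). Its groups were far apart relative to their spread, at a log2 difference of 1.29 (SE 0.20, edgeR adjusted p = 0.00442) that 1.03% of tested genes exceeded. Leaving out single libraries gave between 1.22 and 1.34 (highest adjusted p = 0.0279). On the log2(FPKM + 1) scale the difference was 0.27 and was still called; that scale understates changes of low genes. Pdgfrb, another gene of mural cells, also rose (log2 fold change 1.18, adjusted p = 0.00458, mean FPKM 0.75 with circSlc17a5 and 0.31 in control). Of the 6 tested genes among 11 mural and smooth muscle markers, 1 rose and 2 (Anpep and Des) fell, and the summed level was 105 to 112 FPKM with circSlc17a5 and 136 to 140 in control, most of it Anpep. The defining pericyte genes Rgs5, Cspg4 and Abcc9 averaged 0.0167, 0.00667 and 0.00167 FPKM over the 6 libraries. Acta2, of smooth muscle, had 4, 87 and 23 counts with circSlc17a5 and 92, 4 and 1 in control, highest in circSlc17a5 replicate 2 and control replicate 1. Without those 2 libraries the log2 fold change of Notch3 was 1.39, still called. The part of mural markers in the Notch3 result was not tested further.

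Notch2, the most abundant receptor, had 88, 64.2 and 61.9 CPM with circSlc17a5 and 63.4, 49.5 and 52.9 CPM in control. The groups overlapped, with circSlc17a5 replicate 3 below control replicate 1, while circSlc17a5 replicate 1 was far above all others. The log2 fold change of 0.37 (SE 0.14) did not pass (edgeR adjusted p = 0.075). It was called by DESeq2 (adjusted p = 0.0493), without control replicate 1 (0.48, adjusted p = 0.013) and without both control replicate 1 and circSlc17a5 replicate 2 (0.55, adjusted p = 0.00886), and it was 0.19 (adjusted p = 0.293) without circSlc17a5 replicate 1 and 0.16 (adjusted p = 0.242) when GC content and length were entered as an offset. Notch4, a receptor largely confined to endothelium in mouse tissues, had 10.1, 11.1 and 8.84 CPM with circSlc17a5 and 10.3, 9.92 and 8.95 CPM in control. Its groups overlapped fully, at a log2 difference of 0.04 (SE 0.12, adjusted p = 0.812) that was -0.05 with the offset.

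Summed over the 4 receptors, the level was 11.7 to 15.4 FPKM with circSlc17a5 and 8.51 to 11 FPKM in control. Notch2 made up most of it in every library, at a mean of 54.1% with circSlc17a5 and 55.2% in control. The share of Notch1 was 30.5% and 27.4%, that of Notch3 2.99% and 1.58%, and that of Notch4 12.4% and 15.8%, in circSlc17a5 and control cells in each case. Shares of a sum depend on each other, so the lower share of Notch4 stands beside an overlapping level of its own.

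**Figure D2:**
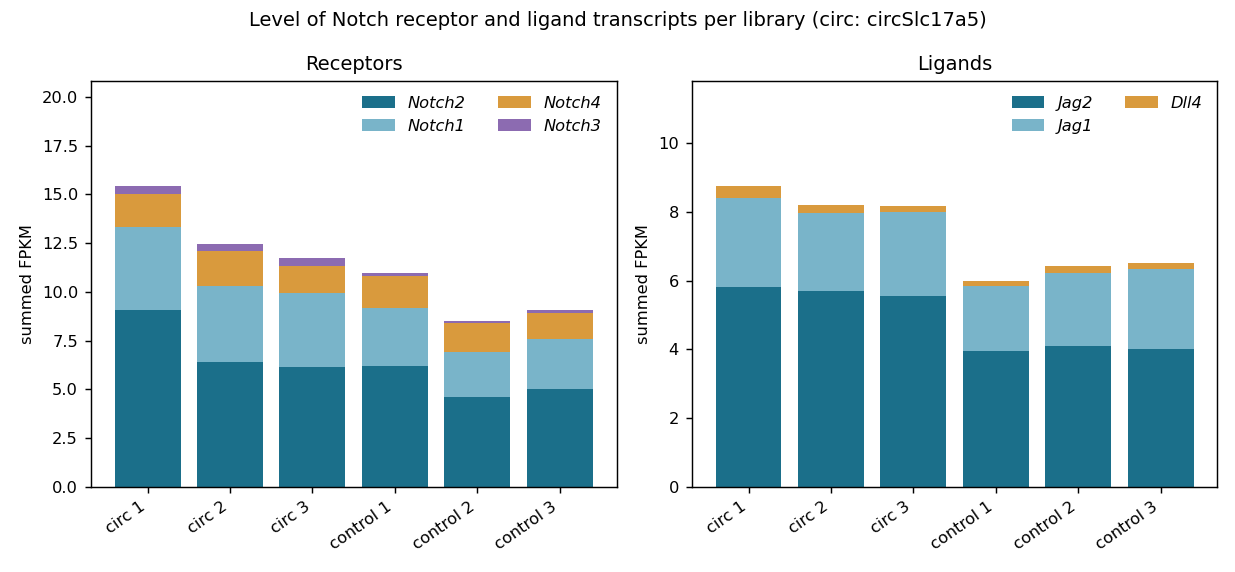
Summed FPKM (y axis from 0) of the receptors (left panel) and the member ligands Jag2, Jag1 and Dll4 (right panel) in each library, circSlc17a5 (circ) left of control, with bar segments for single genes. The receptor sums are 11.7 to 15.4 with circSlc17a5 and 8.51 to 11 in control, and the ligand sums 8.16 to 8.75 with circSlc17a5 and 6 to 6.52 in control.

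The ligands among the members are Jag1, Jag2 and Dll4, while Dll1 is described below. Of the 3 member ligands, Jag2 (chromosome 12, 112907803 to 112929812), of the Jagged family, was the most abundant and the only gene called as risen. It had 23.3, 25.1 and 23.5 CPM with circSlc17a5 and 18.1, 19.4 and 18.6 CPM in control, so that the groups did not overlap. The log2 fold change was 0.36 (SE 0.08, edgeR adjusted p = 0.0194), and 12.7% of tested genes had a larger one. The size was stable when single libraries were left out (0.32 to 0.38), but the call ended without circSlc17a5 replicate 1 (adjusted p = 0.0602), 2 (0.0793) or 3 (0.0524) or without control replicate 3 (0.0638). The call also ended without both control replicate 1 and circSlc17a5 replicate 2 (0.30, edgeR adjusted p = 0.0622).

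Jag1, the Jagged ligand that promotes sprouting in vessels, had 13.1, 11.8 and 12.8 CPM with circSlc17a5 and 9.91, 11.7 and 12.5 CPM in control. The groups overlapped, and the log2 difference of 0.14 (SE 0.12, adjusted p = 0.37) was -0.05 when GC content and length were offset. Dll4, the Delta ligand of endothelial tip cells, had 14, 10 and 8 counts with circSlc17a5 and 7, 9 and 10 counts in control. These counts were too low to be tested, overlapped between the groups, and had a log2 fold change of 0.24 with q = 0.916 in the authors' deposited table.

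Of the target repressors, Hes1, a basic helix-loop-helix repressor and a direct target in many tissues, was high in both groups. It had 28.7, 31.7 and 35 CPM with circSlc17a5 and 25.8, 36.2 and 38.2 CPM in control. The groups overlapped, with control replicate 1 the lowest library of all. The log2 fold change was -0.07 (SE 0.14, adjusted p = 0.732), and -0.23 (adjusted p = 0.078) without control replicate 1, and it was 0.03 on the log2(FPKM + 1) scale, so no direction is given.

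Hey1 (chromosome 3, 8663359 to 8667038), a repressor related to the Hes proteins, was low in both groups and rose. It had 20, 17 and 22 counts with circSlc17a5 and 7, 6 and 11 counts in control, or 1.13 ± 0.16 and 0.474 ± 0.15 CPM (SD, n = 3 libraries each). Every circSlc17a5 library was above every control library, at a log2 difference of 1.23 (SE 0.32, edgeR adjusted p = 0.0267). Only 1 control library reached the filter on low counts, so Hey1 entered the test through the group where it was high. The call ended without circSlc17a5 replicate 1 (adjusted p = 0.0992), 2 (0.0659) or 3 (0.0862), without control replicate 2 (0.0887) and by DESeq2 (0.0871), and the authors' deposited table gave q = 0.11. The listed span of Hey1 overlaps that of LOC115489673, and whether reads were counted by strand is not stated, so its counts are uncertain. Hey2, its relative of arterial endothelium, had 1, 1 and 0 counts with circSlc17a5 and 0 in all 3 control libraries. A count of 0 allows up to 3 counts per library, or 0.176 to 0.181 CPM in the control libraries, so no difference was detectable at this depth.

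**Figure D3:**
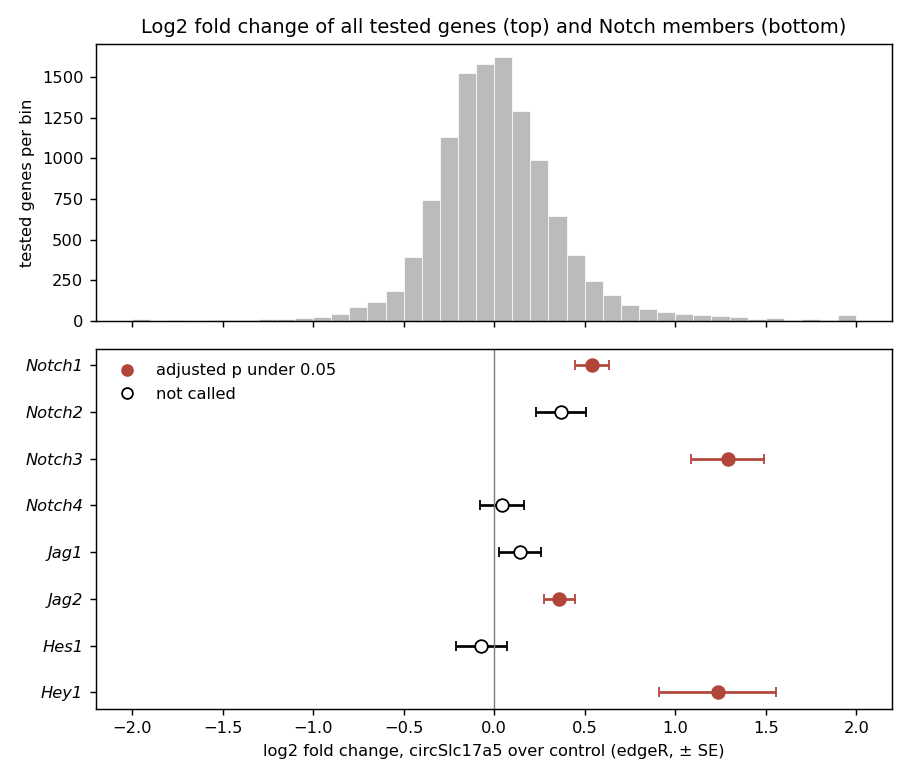
Histogram of the log2 fold changes (circSlc17a5 over control, edgeR) of all 11722 tested genes in bins of 0.1, with values beyond 2 in either direction placed in the end bins (top), and the log2 fold changes with SE of the 8 tested members on the same axis (bottom; filled, adjusted p under 0.05). Notch3 and Hey1 lie beyond 1, Notch1 and Jag2 between 0.3 and 0.6, and Notch4 and Hes1 near 0.

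At the level of transcripts, estimated by the authors for 20 RefSeq transcripts of the members, 12 had enough counts to be tested and 0 were called by edgeR (2 had an unadjusted p under 0.05, limma-voom called 0 and DESeq2 called 2). Over the whole transcript table edgeR called 0.00708% of 28266 tested transcripts, and DESeq2 6.47% of the 32832 to which it gave an adjusted p. For Notch1 all counts of the gene were assigned to 1 transcript, NM_008714.3, and the log2 fold change there was 0.53 (SE 0.11, edgeR adjusted p = 0.171 over all transcripts). DESeq2 called this transcript (adjusted p = 0.00255) and NM_008716.3 of Notch3 (adjusted p = 0.0115). In control replicates 2 and 3, 30.1% and 31.8% of the Notch3 counts were assigned to XM_030249555.1. That share was 0% in control replicate 1 and all circSlc17a5 libraries. By DESeq2 the log2 fold change was 1.61 for NM_008716.3 and 1.29 for the gene. The part of this assignment in the difference of NM_008716.3 was not tested.

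Hey1 differed between the groups in which transcript its few reads were assigned to. NM_010423.2 had 20, 17 and 22 expected counts with circSlc17a5 and 0, 0 and 6.67 in control, and XM_006530053.3 had 0 in all circSlc17a5 libraries and 7, 6 and 4.33 in control. The groups were separate, but the difference of NM_010423.2 was not called (edgeR adjusted p = 0.469, DESeq2 adjusted p = 0.378). For Jag2 the assignment changed from library to library within a group: XM_011243999.2 took 45.4%, 1.7% and 35.9% of its counts with circSlc17a5 and 19%, 88.7% and 46.8% in control. Of its 4 tested transcripts 0 were called by edgeR, which called 0.00708% of all tested transcripts, so this sets no limit particular to Jag2. The call of Jag2 was made on the summed gene count and was not resolved by transcript. Of Notch4, XM_006523798.4 had 61.3 expected counts in circSlc17a5 replicate 1 and 0 in the 5 other libraries.

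**Figure D4:**
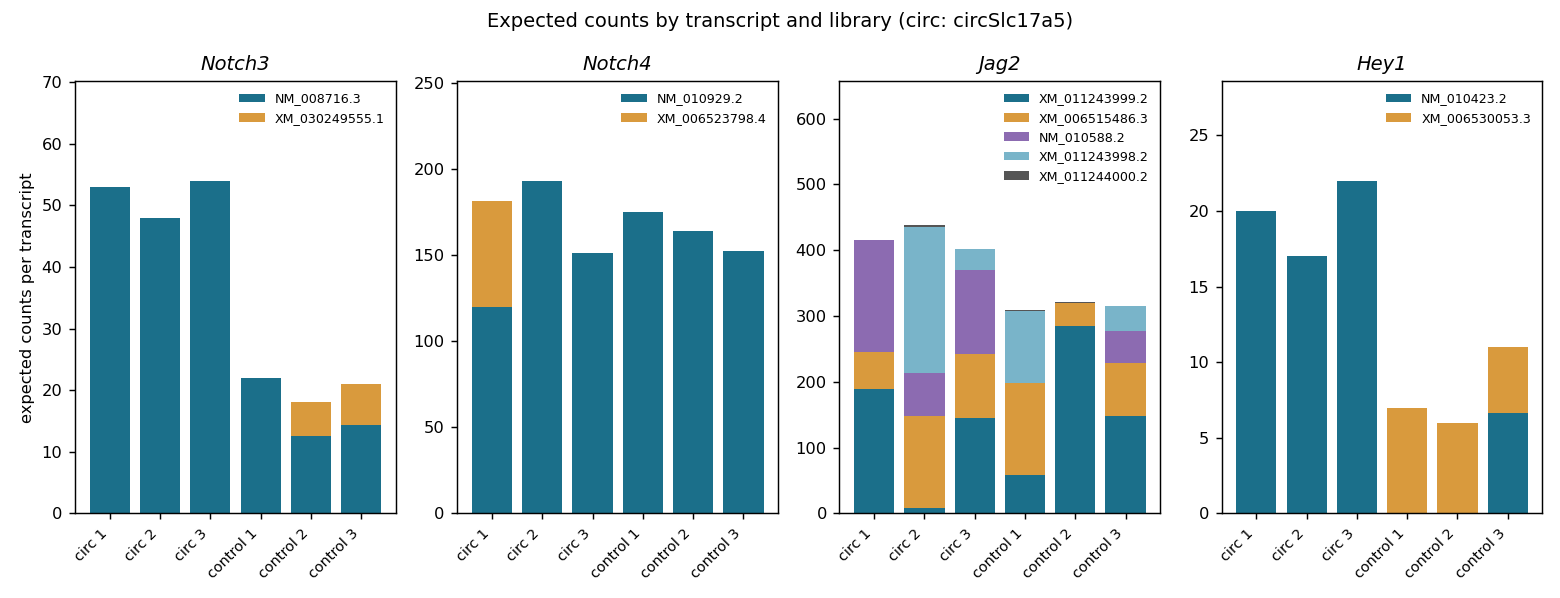
Expected counts per transcript (y axis from 0, stacked) of Notch3, Notch4, Jag2 and Hey1 in each library, circSlc17a5 (circ) left of control. All Hey1 counts are on NM_010423.2 with circSlc17a5 and mostly on XM_006530053.3 in control, while the makeup of Jag2 differs within each group.

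The other genes of the pathway were taken from lists written from general knowledge. Of 86 listed genes 82 were in the table and 74 were tested, of which 12 rose, 6 fell and 56 were not called (12 rose and 9 fell when GC content and length were offset). That is near the share over all tested genes, 22% in either direction, and the median log2 fold change of 0.04 was close to that of all tested genes (-0.0024). Among the other ligands, Dll1, a Delta ligand that activates Notch receptors in many tissues, was the 1 gene with enough counts to be tested. It had 368, 339 and 392 counts with circSlc17a5 and 142, 142 and 191 counts in control. The groups were well apart, at a log2 difference of 1.16 (SE 0.13, edgeR adjusted p = 0.000774) that was called with each library left out (highest adjusted p = 0.00649). On the FPKM scale its mean level was 6.61 with circSlc17a5 and 2.84 in control, beside 5.69 and 4.02 for Jag2, so that Dll1 was above Jag2 in circSlc17a5 cells and below it in control cells. Among 7 genes of ligand endocytosis 2 rose and 0 fell by edgeR (unadjusted 3 and 0, DESeq2 2 and 0, limma-voom 2 and 0). Neurl1b, a ubiquitin ligase that acts on Notch ligands, had 79, 85 and 99 counts with circSlc17a5 and 19, 29 and 30 in control, 3.25-fold more (log2 1.70, SE 0.22, adjusted p = 0.00148), called with each library left out. Its relative Neurl1a was 1.39-fold higher (adjusted p = 0.0235), a call that ended without circSlc17a5 replicate 1, 2 or 3 or control replicate 3 (highest adjusted p = 0.0867).

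The enzymes that mature and cleave the receptors did not pass edgeR's test. Of 10 genes of receptor maturation and glycosylation 0 were called by edgeR (3 higher and 1 lower at an unadjusted p under 0.05, 0 by DESeq2 and limma-voom, and 0 higher and 2 lower with the offset). Furin, the protease that cleaves the Notch precursor, had a log2 fold change of 0.20 (adjusted p = 0.115) and the glycosyltransferase gene Rfng one of -0.22 (adjusted p = 0.169). Of 8 genes of receptor cleavage 0 were called by edgeR (1 higher and 1 lower unadjusted, and 0 by DESeq2 and limma-voom). The share called by edgeR over all 11722 tested genes was 22%, in either direction. For the gamma-secretase gene Psenen the log2 fold change was -0.25 (adjusted p = 0.124), and for Ncstn 0.13 (adjusted p = 0.229). Without control replicate 1, Furin (adjusted p = 0.0200) and Psenen (adjusted p = 0.0146) were called, as they were without both control replicate 1 and circSlc17a5 replicate 2 (adjusted p = 0.0339 and 0.0262).

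In the nuclear complex, 3 of 9 genes rose and 1 fell (3 and 2 with the offset). Over all tested genes 22% were called and 11.8% rose. Maml1, a Mastermind coactivator that binds the Notch intracellular part on RBPJ, was 1.55-fold higher (adjusted p = 0.0235), and the acetyltransferase gene Ep300 1.38-fold (adjusted p = 0.021). Crebbp, the close relative of Ep300, was 1.28-fold lower (log2 fold change -0.36, adjusted p = 0.0376), and the difference between the paralogs was not tested. Of 15 corepressor genes 2 rose and 3 fell (2 and 3 with the offset), beside the same share over all tested genes. Spen, which represses through RBPJ, was 1.53-fold higher (adjusted p = 0.0179) and the histone demethylase gene Kdm5a 1.40-fold (adjusted p = 0.0177). Tle2, a corepressor of the Groucho family that Hes proteins recruit, was 1.46-fold lower (adjusted p = 0.00803), with 341, 323 and 375 counts with circSlc17a5 and 450, 503 and 512 in control, and Hdac1, a histone deacetylase, 1.18-fold lower (adjusted p = 0.0421). Of these, Tle2 was called with each library left out. The calls of Ep300 and Spen ended without circSlc17a5 replicate 1 or control replicate 3, that of Ep300 also without control replicate 2. Those of Maml1 and Kdm5a ended without circSlc17a5 replicate 1 or 2 or control replicate 2 or 3, that of Crebbp without any library other than control replicate 1, and that of Hdac1 without any other than control replicate 2. The highest adjusted p among these was 0.142, for Hdac1. Maml1, Spen, Kdm5a and Tle2, like Furin, Ncstn, Psenen and Aak1, overlap the listed span of another gene, so their counts are uncertain. The listed spans that Hdac1 overlaps also overlap Tle1 and Ccnc elsewhere on chromosome 4, so they tell little about its counts.

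Receptor trafficking and turnover held 2 risen and 0 fallen of 12 tested genes by edgeR (unadjusted 3 and 2, DESeq2 2 and 1, limma-voom 2 and 0, with the offset 1 and 1). Over all tested genes 22% were called and 11.8% rose. Aak1, a kinase of clathrin adaptors, was 2.50-fold higher (adjusted p = 0.0192), with 217, 99 and 116 counts with circSlc17a5 and 79, 39 and 48 in control. Nedd4, a ubiquitin ligase, was 1.28-fold higher (adjusted p = 0.0364). Aak1 lost its call without circSlc17a5 replicate 1 or control replicate 2 or 3 (highest adjusted p = 0.0847). Nedd4 lost it without any library other than control replicate 1 (highest adjusted p = 0.134) and with the offset (adjusted p = 0.0582).

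Of 12 tested genes listed as other targets 2 rose and 2 fell (3 and 1 with the offset), where 22% of all tested genes were called. Whether each listed gene is a direct Notch target in these cells was not tested. Nrarp, a direct target whose protein feeds back on the Notch intracellular part, had 252, 247 and 258 counts with circSlc17a5 and 173, 153 and 129 in control. All circSlc17a5 libraries lay above the control libraries, at a log2 difference of 0.68 (SE 0.12, adjusted p = 0.00735), called with each library left out (highest adjusted p = 0.0353). Snai1, a repressor known from epithelial to mesenchymal transition, was 1.24-fold higher (adjusted p = 0.0285). Id1, which blocks basic helix-loop-helix factors, was 1.23-fold lower (adjusted p = 0.0242) and Hes6, a Hes family member that antagonises Hes1, 1.28-fold lower (adjusted p = 0.0439). The calls of Snai1, Id1 and Hes6 each ended without any library other than control replicate 1, with highest adjusted p values of 0.107, 0.103 and 0.167, and Hes6 was not called by DESeq2 (adjusted p = 0.0581) or with the offset (adjusted p = 0.133).

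**Figure D5:**
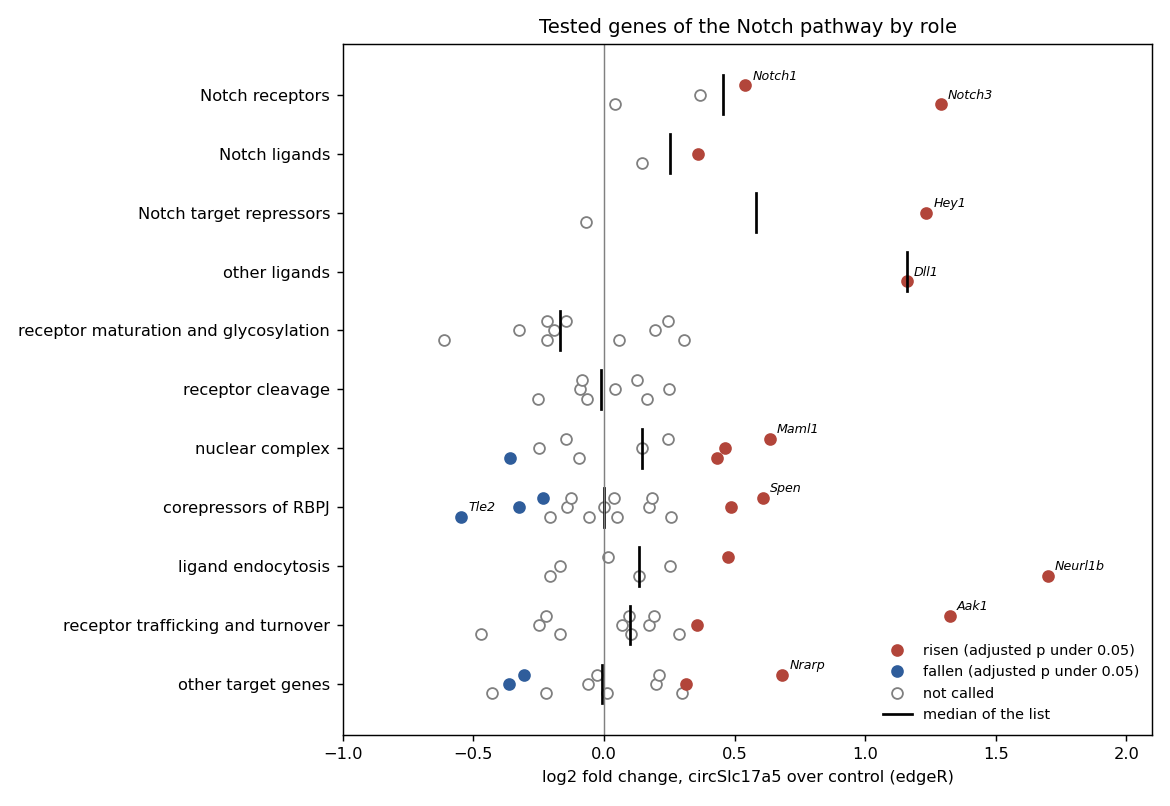
Log2 fold changes (circSlc17a5 over control, edgeR) of the tested members (the 3 top lists) and of the other tested pathway genes by role, 1 point per gene, red for risen and blue for fallen at an adjusted p under 0.05, with the median of each list as a black line. Called genes beyond 0.53 in either direction are named, the farthest being Neurl1b at 1.70, Aak1 at 1.32 and Notch3 at 1.29.

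Transcript length differed between the members and the whole table, and between risen and fallen genes. Median length was 4683 bases for the tested members, at 54.3% GC, against 2195.5 bases and 51.0% GC over all tested genes. Risen genes had a median length of 3046 bases and fallen genes 1527. Length and GC content of a gene were medians over all its protein-coding GENCODE M21 transcripts, short ones included. They need not be those of the transcript expressed: Ep300 was entered with 499 bases and Tle2 with 646.5. How far this affects the fits with the offset was not tested. In the fit with an offset for GC content and length, Notch1 was at 0.42 (adjusted p = 0.00849), Notch3 at 1.24 (adjusted p = 0.00401), Jag2 at 0.40 (adjusted p = 0.00999) and Hey1 at 1.22 (adjusted p = 0.0258) on the log2 scale, all 4 still called. The authors' deposited table, made with DESeq2, gave q = 0.000219 for Notch1, 0.00324 for Notch3 and 0.0268 for Jag2, with log2 fold changes of 0.54, 1.29 and 0.36, and q = 0.0622 for Notch2.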

How the data were processed

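For the 6 libraries the authors deposited gene and transcript tables of expected counts, FPKM and TPM. The expected counts are estimated reads and need not be whole; TPM values were not used. Per the labels' protocols, RNA was isolated with TRIzol and sequenced from a SMARTer library kit. The submitters' processing notes name RSEM 1.2.12, HISAT2 2.0.4 and Bowtie2 2.2.5, without their roles. Per the file headers, a further deposited table holds log2 fold changes with p-values and q-values from DESeq2. The labels used here name no genome build. Start and end of 7 of the 10 members lay within 1 base of RefSeq GRCm38.p6; the deposited spans of Notch1, Notch3 and Dll4 were longer, and Notch1 and Notch3 are listed there on the plus strand, against minus in RefSeq.

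Of 15399 genes, 15398 were also in the authors' table of annotated genes and were used. Expected counts were rounded, filtered with filterByExpr, scaled by TMM and compared by the two-sided quasi-likelihood test of edgeR 4.0.16 in R 4.3.3, 3 circSlc17a5 against 3 control libraries, with p-values adjusted over all 11722 tested genes and a threshold of 0.05. SE is the absolute log2 fold change over the square root of F. The floors for counts of 0 cover counting error only, while SE and SD also reflect spread between libraries. Alternatives were DESeq2 1.42.0, limma 3.58.1 (voom, and trend on log2(FPKM + 1) or log2(FPKM + 0.1)), other filters and scalings, left-out libraries, a replicate block, and an offset per gene and library from splines of GC content and length of GENCODE M21 transcripts, which 97.0% of tested genes had. The procedure was run on simulated counts with a single dispersion for all genes and no drift between libraries. Such a run cannot show how calls shift when a real library is left out. Named genes are the members and, for each other list, the top 2 called genes by adjusted p in each direction, or the 2 most abundant by FPKM where none was called. Pdgfrb, Pdgfra, Epcam, Cdh1, Krt7, Cd68, Col1a1, Col1a2, Acta2, Rgs5, Cspg4 and Abcc9 were named after their values were seen. The members, lists and alternatives were chosen with earlier results of these data known.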

Additional observations from a re-analysis of the deposited data

How the results depend on the processing

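Of the calls of members, Notch1 and Notch3 held under all 16 alternatives, and Jag2 and Hey1 under 11 each. The number of members called lay between 2 and 5 with single libraries left out, and that of the other pathway genes between 4 and 35, against 18 with all libraries. Over all genes, 2584 calls became between 462 and 4699, the lowest without circSlc17a5 replicate 1 and the highest without control replicate 1. Leaving out control replicate 1 and circSlc17a5 replicate 2 together gave 28 calls among the other pathway genes. On log2(FPKM + 1) with no filter, 922 genes and 6 of the other pathway genes were called. With the filter, 68.7% of calls on that scale were rises, against 53.6% from counts. DESeq2 called 2 transcripts of members, edgeR 0. The cause of these shifts was not tested. Over 28 named genes and 16 alternatives, 358 of 448 results kept their side of the threshold, 80 lost the call, 10 gained one and 0 called genes turned direction.

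With the replicate number as a block, 4429 genes, 34 other pathway genes and 5 members were called, Notch2 being the fifth. The block also called Furin (adjusted p = 0.0306) and Psenen (adjusted p = 0.0124). Deviations from group means of same-numbered libraries correlated across genes at 0.303, 0.111 and 0.0935, and circSlc17a5 replicate 3 correlated best with control replicate 2 (0.36), so the numbers were not taken as pairs and the block was not joined with the offset. Depth limits Dll4, Hey1 and Hey2, which had at most 22 counts in any library.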
